A study of Homo sapiens with 18 samples.

Results

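The effect of a gamma-secretase inhibitor on control leukaemia cells was read from 6 of the 18 RNA libraries of the series. The cells were RPMI-8402, an established human line of T-cell acute lymphoblastic leukaemia (T-ALL). NT_GSI held 3 libraries of cells with the non-targeting guide Rneg1, kept for 24 h with the gamma-secretase inhibitor that the labels spell LY3039278. NT_DMSO held 3 libraries of the same cells kept for 24 h with the vehicle DMSO. The labels give the genotype of both as WT, and the members of the comparison are all genes measured in these 6 libraries. For 2 side comparisons, use was also made of 3 libraries of the same control cells given CB-103, which blocks assembly of NOTCH with its DNA-binding partner, and of PIK3R1 knockout cells with the gamma-secretase inhibitor (KO_GSI) or DMSO (KO_DMSO), 3 libraries each. All groups had been treated for 24 h. No source used here gives the doses, or says whether the control cells were a clone or a pool. The labels do not say that replicates were separate cultures, so p-values measure only the spread between these libraries, which may be technical.

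NOTCH receptors are cut by proteases when a ligand binds, and the last cut, made inside the membrane by the gamma-secretase complex, frees the intracellular domain. That domain enters the nucleus, joins the DNA-binding protein RBPJ and a Mastermind-like co-activator, and switches on target genes. In T-ALL the pathway is often active without ligand through NOTCH1 mutations, and MYC is a direct target through which NOTCH drives growth genes.

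The 6 libraries held 31535657 to 43558387 estimated reads. The line expressed T-cell genes in all of them, with 25970, 21105 and 25835 estimated LCK reads in NT_GSI and 28579, 24391 and 33182 in NT_DMSO, while the B-cell gene MS4A1 had no read in any library. Mitochondrially encoded genes took 5.51%, 1.90% and 3.95% of reads in NT_GSI and 3.22%, 3.09% and 3.72% in NT_DMSO, so that replicate 2 of NT_GSI was the lowest and replicate 1 the highest. PIK3R1, the gene targeted in the knockout cells, had 50.7, 57.1 and 53.05 CPM (deposited gene counts scaled to the library size) in NT_GSI and 44.3, 45.55 and 42.5 CPM in NT_DMSO. The knockout cells had 27.8 ± 4.16 CPM in KO_GSI and 22.5 ± 1.02 CPM in KO_DMSO (SD, n = 3 each), below both control groups. The rise of PIK3R1 with the inhibitor in control cells was small (log2 0.28, SE 0.09, edgeR adjusted p = 0.023), and its call was lost without NT_GSI replicate 2 or 3, without NT_DMSO replicate 1 or 3, and in replicates 2 and 3 only.

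Of 17346 genes tested, 4277 (24.7%) differed between NT_GSI and NT_DMSO at an adjusted p under 0.05 in edgeR's quasi-likelihood test. Higher in NT_GSI were 1677 genes (9.67%) and lower were 2600 (15%). Most of these differences were small, with a median log2 change of 0.43 for the higher and -0.34 for the lower genes. The 3 libraries of each group did not overlap for 6895 genes (39.7%). At least 2-fold higher were 246 genes (1.42%) and at least 2-fold lower were 264 (1.52%). The direction was the same in all 3 pairs of equal replicate number for 1659 of the 1677 higher and 2586 of the 2600 lower genes. These genes were called from the same libraries, so such agreement is largely set by the selection. Without NT_GSI replicate 3, 1102 genes were called higher. The median over all tested genes was 0.01, against which the medians of gene lists are to be read. Counts of called list members are to be read beside the 9.67% higher and 15% lower of all tested genes. Members of the lists were chosen with earlier results of these data known.

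**Figure D1:**
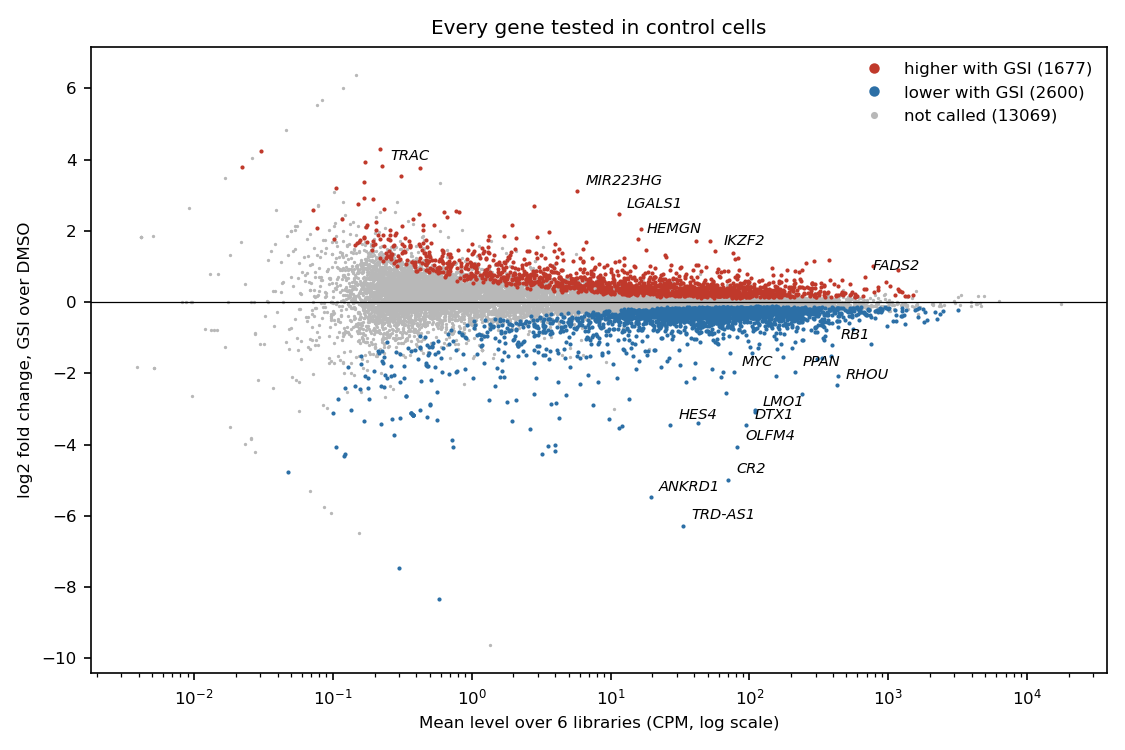
All 17346 tested genes by mean level (CPM, log axis) and log2 fold change of NT_GSI over NT_DMSO, with called genes in colour and named genes marked. Large falls such as those of TRD-AS1, ANKRD1 and CR2 go further from 0 than the largest rises.

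The components of the NOTCH pathway moved less than its targets. Of 28 measured receptors, ligands and parts of the signal machinery, 3 rose (10.7%) and 5 fell (17.9%), with a median log2 change of -0.03. These shares were near those of all tested genes, of which 9.67% were higher and 15% lower. NOTCH3, a receptor that is itself a NOTCH target in T-ALL, had 13.1, 14.9 and 15.5 CPM in NT_GSI, against 45.5, 49.9 and 52.25 CPM in NT_DMSO. The groups did not overlap, and the fall was 3.40-fold (log2 -1.77, SE 0.16, edgeR adjusted p = 3.73e-07). The ligand gene JAG1 had 5.56, 3.99 and 3.35 CPM in NT_GSI and 9.17, 8.98 and 8.61 CPM in NT_DMSO (log2 -1.05, SE 0.18, edgeR adjusted p = 0.000382). POFUT1, which puts fucose on NOTCH receptors, fell by 0.26 on the log2 scale.

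NOTCH1, the receptor gene with by far the most reads, had 418.9, 426.1 and 458.3 CPM in NT_GSI and 438.7, 516.9 and 499.4 CPM in NT_DMSO. The highest NT_GSI library lay above the lowest NT_DMSO library. The log2 difference of -0.16 (SE 0.06) just missed the threshold (edgeR adjusted p = 0.0502). It passed with the replicate block, limma-voom, DESeq2 size factors or Wald test, in replicates 2 and 3 only, with the mitochondrially encoded genes left out, without NT_GSI replicate 3 and without NT_DMSO replicate 1.

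Among NOTCH target genes, 14 of 26 measured members fell (53.85%) and 3 rose (11.5%), with a median log2 change of -0.45. Of all tested genes 15% were lower and 9.67% higher. The hairy and enhancer of split genes encode repressors that NOTCH switches on. HES4 had 4.41, 4.48 and 4.65 CPM in NT_GSI, against 49.9, 50.3 and 48.4 CPM in NT_DMSO. It thus fell 10.97-fold (log2 -3.46, SE 0.09, edgeR adjusted p = 1.12e-14), with all 3 libraries of a group close together. HES1 had 23.7, 22.6 and 22.5 CPM in NT_GSI, against 80.6, 88.35 and 84.2 CPM in NT_DMSO. Its fall of 3.68-fold (log2 -1.88, SE 0.09, edgeR adjusted p = 3.99e-11) left a higher level than that of HES4. The stretch just before the transcription start of each gene is shown because both hold the letters TGGGAA of the RBPJ recognition sequence, in capitals.

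HES1, chr3:194136028-194136147, + strand: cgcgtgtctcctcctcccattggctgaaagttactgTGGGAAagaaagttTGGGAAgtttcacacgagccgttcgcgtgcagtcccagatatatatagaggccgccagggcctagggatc
HES4, chr1:1000098-1000217, - strand: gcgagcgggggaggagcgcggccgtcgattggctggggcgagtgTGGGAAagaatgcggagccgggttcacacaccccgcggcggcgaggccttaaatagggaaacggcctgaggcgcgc

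The sequences are from RefSeq (GRCh38.p14), 5′ to 3′ in the direction of transcription. The matches begin 84 and 70 bases before the start of HES1 and 76 bases before that of HES4. Such a match is common. On either strand, and counting overlaps with any other motif, TGGGAA occurs in 24.3% of the 27305 RefSeq promoter windows of 300 bases, in 22.0% of the 11624 tested genes with a window, and in 4 of the 22 NOTCH targets with a window (18.2%). These letters thus did not mark the list.

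DTX1, which encodes a ubiquitin ligase that binds NOTCH, had 14.9, 17.2 and 15.96 CPM in NT_GSI and 159.5, 181 and 183.5 CPM in NT_DMSO. It fell 10.9-fold (log2 -3.45, SE 0.08, edgeR adjusted p = 4.33e-15; chr12:113056709-113098028, hg38). CR2, the gene of a complement receptor, had 3.90, 4.88 and 4.18 CPM in NT_GSI, against 135.7, 136 and 137.1 CPM in NT_DMSO. This fall of 31.65-fold (log2 -4.98, SE 0.08, edgeR adjusted p = 1.93e-17) was the steepest among the NOTCH targets. RHOU, a small GTPase gene, had 133.3, 152.9 and 140.3 CPM in NT_GSI and 714.3, 703.3 and 714.6 CPM in NT_DMSO, 5.001-fold lower with the inhibitor.

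IGF1R encodes the receptor for insulin-like growth factor, which signals through PI3K. It had 39.8, 36.1 and 42.55 CPM in NT_GSI and 101.2, 107.7 and 110.6 CPM in NT_DMSO, a fall of 1.43 on the log2 scale (SE 0.08, edgeR adjusted p = 8.44e-10). With gene sums of the transcript estimates IGF1R changed by -0.61. Its long coding transcripts fell less, with IGF1R-219 at means of 3.00 TPM in NT_GSI and 4.03 TPM in NT_DMSO. IGF1R-206 averaged 2.00 TPM in NT_GSI and 3.55 TPM in NT_DMSO. The short noncoding IGF1R-205 averaged 0.659 TPM in NT_GSI and 8.275 TPM in NT_DMSO. SHQ1, an assembly factor of snoRNA particles, fell by 0.76 and TASP1, a protease gene, by 0.84 on the log2 scale. The remaining listed targets that fell were HEY2, LZTFL1, CD44 and RAPGEF5, beside NOTCH3 and MYC. The exceptions were IKZF2, TRAF1 and TRIB2, which rose by 1.44, 1.27 and 0.29 on the log2 scale. NRARP, a feedback inhibitor of NOTCH, had no read in any of the 6 libraries. PTCRA, the gene of the pre-T-cell receptor alpha chain, had 1 read in 1 NT_GSI library, so neither was tested.

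**Figure D2:**
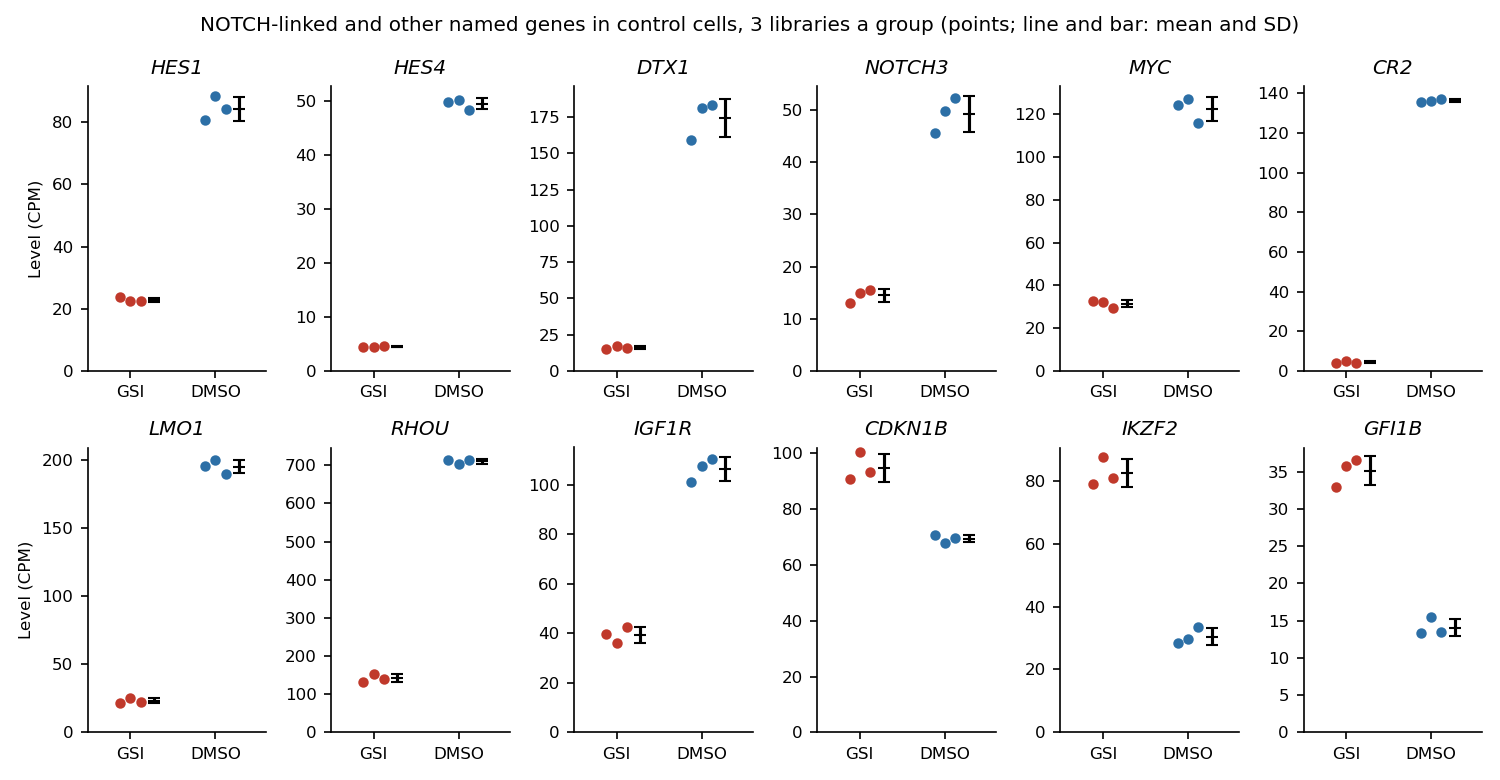
Levels (CPM) of 12 named genes in the 3 NT_GSI libraries (left, red) and the 3 NT_DMSO libraries (right, blue), with the mean and SD beside the points. HES4 stands at 4.41 to 4.65 CPM in NT_GSI and 48.4 to 50.3 CPM in NT_DMSO, and CDKN1B, IKZF2 and GFI1B are higher in NT_GSI.

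MYC and its partners came next. MYC, a transcription factor that drives ribosome production and metabolism, had 32.6, 32.4 and 29.5 CPM in NT_GSI and 124.2, 127.3 and 116.1 CPM in NT_DMSO. It fell 3.89-fold (log2 -1.96, SE 0.07, edgeR adjusted p = 6.37e-13), with no overlap. Of the 13 genes of the MYC, MAX and MXD network, 6 fell (46.15%) and 3 rose (23.1%), with a median of -0.16. Among all tested genes 15% were lower and 9.67% higher. MYCL (log2 -0.60) and the antagonist MXI1 (-0.51) fell with MYC. Other antagonists of MYC rose. MXD3 had 38.55, 43.6 and 42.55 CPM in NT_GSI and 18.9, 25.15 and 20.6 CPM in NT_DMSO (log2 0.95, SE 0.12, edgeR adjusted p = 1.91e-05), and MXD4 rose by 0.67. MLXIP, which pairs with MLX, rose by 0.40 on the log2 scale.

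Every one of the 50 listed ribosome biogenesis genes was lower in NT_GSI, with a median log2 change of -0.60, where 15% of all tested genes were lower. Levels fell by modest factors but with little spread. BOP1, needed to process the RNA of the large ribosomal subunit, had 37.75, 37.9 and 37.7 CPM in NT_GSI and 68.5, 71.6 and 69.2 CPM in NT_DMSO (log2 -0.88, SE 0.05, edgeR adjusted p = 8.94e-10). NOLC1, a nucleolar phosphoprotein, had 227.3, 220.4 and 217.7 CPM in NT_GSI and 407.1, 388.8 and 385.3 CPM in NT_DMSO, 1.77-fold lower. NOP16 fell by 1.04, RRS1 by 0.94 and RRP9 by 0.86 on the log2 scale. PPAN had the largest fall of the list, with 86.4, 81.8 and 90.8 CPM in NT_GSI and 348.1, 326.0 and 339.3 CPM in NT_DMSO (log2 -1.97). The read-through gene PPAN-P2RY11 shares its sequence, so the split of reads between them is uncertain.

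MYC and MAX bind the E-box CACGTG. That palindrome lies in 18 of the 43 ribosome biogenesis genes with a RefSeq promoter window (41.9%), against 9.83% of the 11624 tested genes with a window and 7.43% of all 27305 windows. It occurs in 282 of 2094 lower genes (13.5%) and in 108 of 1174 higher genes (9.2%), but in 15 of the 158 genes that were at least 2-fold lower (9.49%). Other lists with many falls varied. It lay in 7 of 29 mitochondrial import genes (24.1%) and 5 of 22 genes of nucleotide and polyamine synthesis (22.7%). Enzymes that modify tRNA and rRNA held it in 4 of 21 (19.0%) and translation factors in 6 of 32 (18.8%). For subunits of RNA polymerases I and III it was 4 of 22 (18.2%). Some lists held it no more often than all tested genes. Among these were 1 of 18 aminoacyl-tRNA synthetases (5.56%) and 2 of 26 amino acid response genes (7.69%). So were 4 of 44 mitochondrial ribosomal proteins (9.09%) and 0 of 25 cytosolic chaperones. The examples shown are 3 genes that fell and whose CACGTG, in capitals, lies wholly within the 120 bases before the start. Not every gene was considered as an example, so these need not be the largest falls among genes that hold it.

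UTP20, chr12:101279985-101280104, + strand: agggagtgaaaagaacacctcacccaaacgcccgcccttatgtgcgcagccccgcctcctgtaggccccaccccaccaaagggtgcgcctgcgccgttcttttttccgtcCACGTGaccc
NAT10, chr11:34105509-34105628, + strand: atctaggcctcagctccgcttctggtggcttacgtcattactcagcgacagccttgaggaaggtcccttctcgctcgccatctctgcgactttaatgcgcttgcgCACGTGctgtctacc
UTP4, chr16:69132529-69132648, + strand: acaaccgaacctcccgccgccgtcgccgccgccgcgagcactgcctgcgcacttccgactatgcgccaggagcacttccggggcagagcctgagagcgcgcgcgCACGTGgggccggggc

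The match begins 10 bases before the start of UTP20, 15 before that of NAT10 and 16 before that of UTP4 (RefSeq, GRCh38.p14). UTP20, a component of the small subunit processome, had 64.96, 69.7 and 63.2 CPM in NT_GSI and 115.6, 117.5 and 114.5 CPM in NT_DMSO (log2 -0.81, SE 0.05, edgeR adjusted p = 1.41e-09). NAT10, which acetylates cytidines of ribosomal RNA, fell by 0.60 and UTP4, a further processome component, by 0.49 on the log2 scale. Binding of MYC was not measured here, and a match of letters is a description only.

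The rest of the machinery for making proteins also leaned downward. Of 28 subunits of RNA polymerases I and III, which transcribe ribosomal and transfer RNA, 17 fell and 1 rose (median -0.31), with POLR3G lower by 0.81 and POLR1B by 0.77 on the log2 scale. Of 22 cytosolic aminoacyl-tRNA synthetase genes, 21 fell and none rose (median -0.50). MARS1, which charges methionine tRNA, had 217.8, 204.0 and 216.9 CPM in NT_GSI and 392.6, 366.2 and 387.9 CPM in NT_DMSO (log2 -0.84, SE 0.06, edgeR adjusted p = 1.17e-08). Enzymes that modify tRNA and rRNA fell for 23 of 28 (median -0.38), among them METTL1 and WDR4, which together methylate tRNA, both by 0.68 on the log2 scale.

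Translation factors fell for 27 of 40 and rose for none (median -0.26), with EIF4EBP1, a brake on cap-dependent translation, lower by 0.78 and EIF5A by 0.58. Cytosolic ribosomal proteins shifted less, with 17 of 51 lower, none higher and a median of -0.15. RPS23 had 749.4, 792.6 and 749.7 CPM in NT_GSI and 935.1, 902.9 and 944.6 CPM in NT_DMSO (log2 -0.28, SE 0.05, edgeR adjusted p = 0.000497). The count for this list rested on single libraries, at 31 lower without NT_GSI replicate 2, 10 without NT_GSI replicate 1 or 3, and 8 without NT_DMSO replicate 1. Of 19 snoRNA host genes, 8 fell and none rose, or 5 without NT_DMSO replicate 3.

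**Figure D3:**
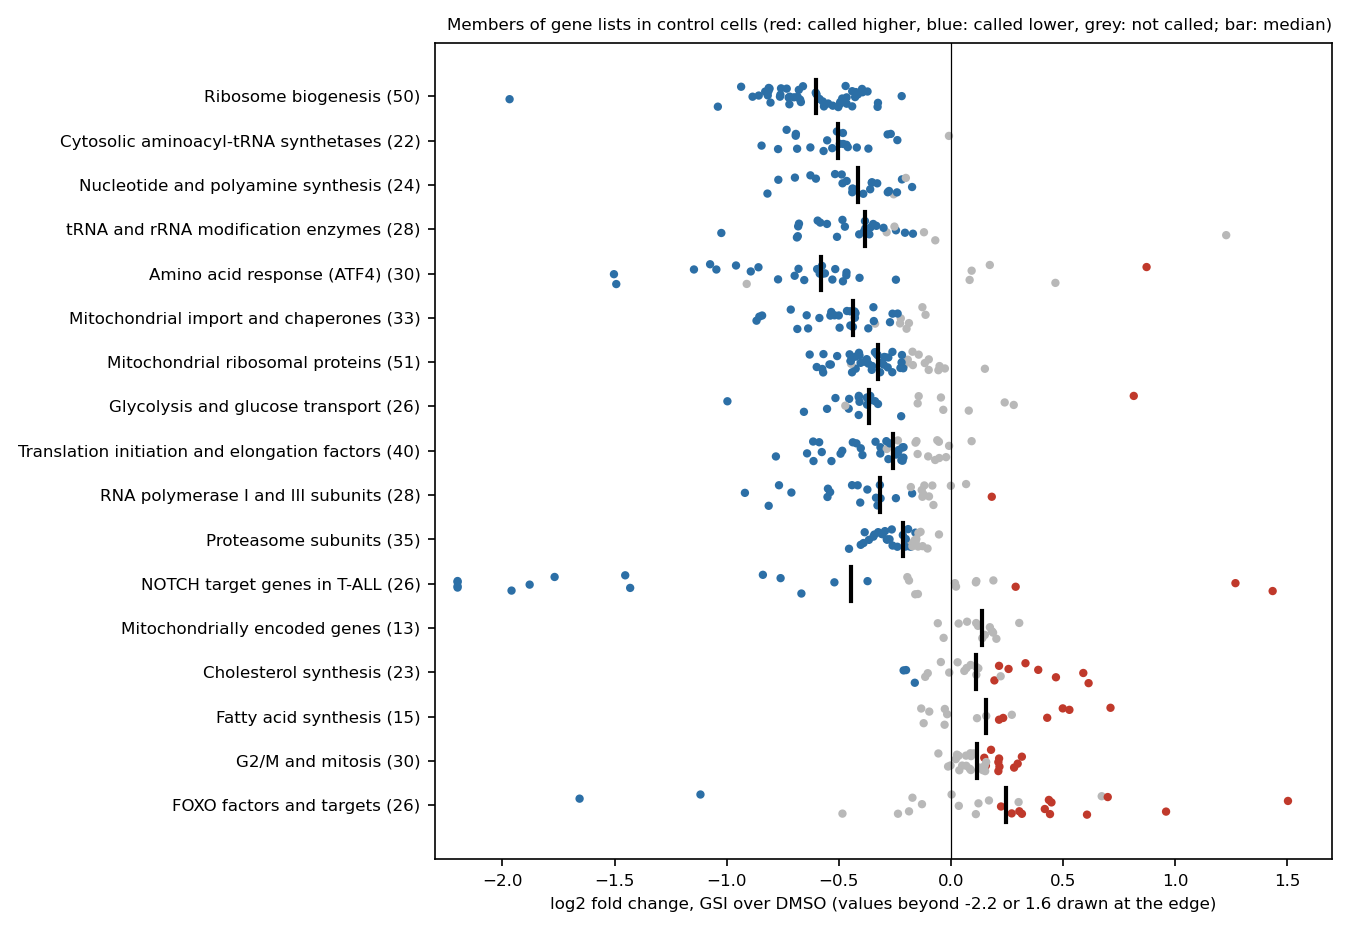
Selected gene lists, each as its members' log2 fold changes of NT_GSI over NT_DMSO, with the median of the list and a line at 0. All genes tested, whose median was 0.01, are not drawn. Ribosome biogenesis (median -0.60), the amino acid response (-0.58) and the aminoacyl-tRNA synthetases (-0.50) lie furthest to the left.

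Mitochondrial ribosomal proteins fell for 38 of 51 (median -0.33) and genes of mitochondrial import for 26 of 33 (median -0.44), with none higher in either list. TOMM40, the pore of the outer membrane, had 62.1, 64.6 and 61.55 CPM in NT_GSI and 113.7, 114.5 and 112.1 CPM in NT_DMSO (log2 -0.85, SE 0.05, edgeR adjusted p = 5.65e-10). Nuclear genes of the respiratory chain fell for 20 of 48 (median -0.20), or 13 without NT_DMSO replicate 1, and CYCS, which encodes cytochrome c, fell by 0.57 on the log2 scale. Of 13 mitochondrially encoded genes none was called, with a median of 0.14, and the spread of their share between the NT_GSI libraries is given above.

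Of 30 genes of the amino acid response, which the transcription factor ATF4 drives, 24 fell and 1 rose (median -0.58). SLC7A11, the cystine importer, had 4.71, 2.82 and 3.48 CPM in NT_GSI and 9.88, 10.7 and 10.9 CPM in NT_DMSO (log2 -1.503, SE 0.14, edgeR adjusted p = 3.01e-07). CHAC1, which degrades glutathione, fell by 1.49, ATF5 by 1.05 and TRIB3 by 0.89 on the log2 scale. ATF3 was the exception, with 60.6, 56.25 and 56.2 CPM in NT_GSI and 34.5, 31.45 and 28.7 CPM in NT_DMSO (log2 0.87, SE 0.08, edgeR adjusted p = 1.81e-07). The unfolded protein response list, which shares the theme of stress, had 3 of 24 genes higher and 6 lower, or 3 lower without NT_GSI replicate 3. In it XBP1 rose by 0.43 and its activator ERN1 fell by 0.39 on the log2 scale.

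Of 24 genes of one-carbon and serine metabolism, 12 fell, 1 rose and 11 were not called (median -0.20). PSAT1, an enzyme of serine synthesis that is also on the ATF4 list, had 156.3, 152.5 and 153.4 CPM in NT_GSI and 337.0, 314.8 and 321.1 CPM in NT_DMSO, 2.10-fold lower (log2 -1.07, SE 0.05, edgeR adjusted p = 6.38e-11). The mitochondrial folate enzymes MTHFD1L, SHMT2 and MTHFD2 fell by 1.18, 0.86 and 0.70 on the log2 scale. Nucleotide and polyamine synthesis fell for 22 of 24 (median -0.41). ODC1, the entry enzyme of polyamine synthesis and a known MYC target, had 158.9, 156.7 and 150.9 CPM in NT_GSI and 266.0, 248.7 and 240.7 CPM in NT_DMSO (log2 -0.70, SE 0.07, edgeR adjusted p = 9.35e-07). The spermidine synthase gene SRM fell by 0.77 and DHODH, of pyrimidine synthesis, by 0.82.

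Glycolysis and glucose transport genes fell for 17 of 26 and rose for 1 (median -0.37), and citric acid cycle genes fell for 15 of 27 (median -0.21). HK2, the hexokinase that traps glucose in the cell, had 24.0, 27.7 and 24.1 CPM in NT_GSI and 50.8, 50.9 and 49.5 CPM in NT_DMSO (log2 -0.9965, SE 0.08, edgeR adjusted p = 7.61e-08). ENO1, among the most abundant genes of the list, had 1442, 1670 and 1583 CPM in NT_GSI and 2270, 2232 and 2204 CPM in NT_DMSO. The aldolase ALDOC rose by 0.82 on the log2 scale. VEGFA, the angiogenic growth factor, stood outside the list and had 8.19, 6.04 and 8.86 CPM in NT_GSI and 24.6, 24.8 and 24.25 CPM in NT_DMSO (log2 -1.66).

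Folding and turnover of proteins followed the same direction. Cytosolic chaperones fell for 19 of 29 (median -0.28), with the abundant HSP90AB1 at 1462, 1538 and 1397 CPM in NT_GSI and 2250, 2178 and 2112 CPM in NT_DMSO. Proteasome subunits fell for 24 of 35 (median -0.21) and splicing factors for 19 of 43 with 1 higher (median -0.16). Their changes were smaller, such as -0.38 for the catalytic subunit PSMB2 and -0.46 for the small nuclear ribonucleoprotein SNRPF on the log2 scale.

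Of 15 genes of fatty acid synthesis, 6 rose, none fell and 9 were not called, where 9.67% of all genes were higher. FADS2, a fatty acid desaturase, had 834.3, 826.5 and 856.0 CPM in NT_GSI and 530.4, 506.6 and 499.3 CPM in NT_DMSO (log2 0.71, SE 0.07, edgeR adjusted p = 8.21e-07). SREBF1, the transcription factor of lipid synthesis, rose by 0.50 and SCD, a further desaturase, by 0.43 on the log2 scale. Cholesterol genes split, with 8 of 23 higher, 3 lower and 12 not called. INSIG1, which retains the sterol sensor in the endoplasmic reticulum, had 558.6, 558.9 and 559.0 CPM in NT_GSI and 373.4, 370.9 and 350.8 CPM in NT_DMSO (log2 0.61, SE 0.06, edgeR adjusted p = 6.41e-07).

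Of the 12 measured cyclins, kinases and inhibitors of G1, 5 were higher, 1 (RB1) was lower and 6 were not called. CDKN1B, which encodes p27 and restrains G1 kinases, had 90.95, 100.5 and 93.3 CPM in NT_GSI and 70.6, 68.0 and 69.8 CPM in NT_DMSO. It rose 1.36-fold (log2 0.45, SE 0.05, edgeR adjusted p = 6.46e-06). CDKN2C and CDKN2D, inhibitors of CDK4 and CDK6, rose by 0.59 and 0.43 on the log2 scale. CCND3, which encodes a D-type cyclin, had 920.9, 1012 and 1021 CPM in NT_GSI and 919.9, 934.6 and 924.9 CPM in NT_DMSO and was not called (edgeR adjusted p = 0.418).

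RB1, the retinoblastoma tumour suppressor, had 236.6, 248.6 and 228.1 CPM in NT_GSI, against 572.5, 532.4 and 546.3 CPM in NT_DMSO (log2 -1.21, SE 0.06, edgeR adjusted p = 1.68e-10). With gene sums of the transcript estimates its log2 change was -0.54, and the full transcript RB1-201 averaged 62.17 TPM in NT_GSI and 83.66 TPM in NT_DMSO. G1/S genes gave 5 higher and 4 lower of 39 (median -0.03), or 3 higher without NT_GSI replicate 2 or 3 or NT_DMSO replicate 1 or 3. Of this list 12.8% were higher and 10.3% lower, against 9.67% and 15% of all tested genes. G2/M genes gave 10 of 30 higher and none lower (median 0.11). That count was 5 without NT_GSI replicate 1, 6 without NT_GSI replicate 2, 6 without NT_DMSO replicate 1 and 5 without NT_DMSO replicate 3. TOP2A, the mitotic topoisomerase, had 1353, 1432 and 1353 CPM in NT_GSI and 1126, 1161 and 1116 CPM in NT_DMSO (log2 0.28).

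FOXO factors, which growth factor signalling through AKT keeps out of the nucleus, had 12 of 26 list members higher (46.15%) and 2 lower (7.69%). The median was 0.25, and of all tested genes 9.67% were higher and 15% lower. KLF2, a quiescence factor of T cells, was low, at 7.01, 5.98 and 5.98 CPM in NT_GSI and 2.76, 1.85 and 2.06 CPM in NT_DMSO (log2 1.504, SE 0.37, edgeR adjusted p = 0.0063). SESN3 rose by 0.70 and TXNIP by 0.42 on the log2 scale, whereas the stress gene GADD45A fell by 1.12. Among 37 components of PI3K, AKT and mTOR signalling, 5 rose (13.5%) and 6 fell (16.2%), against 9.67% and 15% of all tested genes. The 5 became 2 without NT_GSI replicate 2 or 3 and 3 without NT_GSI replicate 1 or NT_DMSO replicate 2 or 3.

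T-cell genes moved in both directions, with 7 of 32 higher (21.9%) and 11 lower (34.4%), against 9.67% and 15% of all tested genes. Their median was -0.22. CD2, an adhesion receptor, had 17.6, 15.1 and 11.7 CPM in NT_GSI and 77.5, 59.3 and 57.0 CPM in NT_DMSO (log2 -2.12, SE 0.21, edgeR adjusted p = 6.91e-07). CD3D, of the T-cell receptor complex, had 124.5, 127.7 and 121.1 CPM in NT_GSI and 231.3, 228.8 and 228.9 CPM in NT_DMSO, 1.85-fold lower. CD3G fell by 0.67, the receptor kinase gene ZAP70 by 1.02 and LCK by 0.23 on the log2 scale. The phosphatase PTPRC and DNTT, which adds bases at receptor joints, rose by 1.16 and 1.01.

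The largest fall of all named genes was that of TRD-AS1, an RNA antisense to the T-cell receptor delta locus (chr14:22380680-22482959, - strand, hg38). It had 0.601, 0.613 and 1.30 CPM in NT_GSI and 57.2, 70.2 and 70.3 CPM in NT_DMSO (log2 -6.28, SE 0.17, edgeR adjusted p = 2.34e-14). On the other strand TRDC, the delta constant gene, was called higher (log2 1.75) at under 1 CPM. Of its exons 38.75% lie opposite TRD-AS1, and whether the counting used strand is not stated, so their reads may not be separable. TRAC, the alpha constant gene, had 11, 16 and 20 reads in NT_GSI and 1 read in each NT_DMSO library.

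Among 32 T-lineage and T-ALL transcription factors, 8 rose and 7 fell. LMO1, an oncogene of the LMO family, had 21.65, 25.15 and 22.4 CPM in NT_GSI and 195.4, 199.8 and 189.7 CPM in NT_DMSO. It fell 8.46-fold (log2 -3.08, SE 0.06, edgeR adjusted p = 1.3e-15; chr11:8224304-8268716, hg38). TAL1, with which LMO proteins form a complex, rose by 0.22, and LYL1, its relative, had 104.6, 135.3 and 124.6 CPM in NT_GSI and 61.4, 80.5 and 71.05 CPM in NT_DMSO (log2 0.78). The 7 falls became 3 without NT_GSI replicate 1 or NT_DMSO replicate 3, and 4 without NT_GSI replicate 3 or NT_DMSO replicate 1 or 2.

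The largest rises included genes of other blood lineages. MIR223HG, the host gene of a microRNA of myeloid cells (chrX:66015461-66020422, + strand, hg38), had 12.7, 6.99 and 11.1 CPM in NT_GSI and 1.12, 1.26 and 1.15 CPM in NT_DMSO. It rose 8.70-fold (log2 3.12, SE 0.24, edgeR adjusted p = 4.28e-08), with replicate 2 the lowest of the NT_GSI libraries. Both mature forms lie inside the host gene on the same strand and are shown with their seeds, bases 2 to 8, in capitals, because they are its known products.

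hsa-miR-223-3p, chrX:66018937-66018958, + strand: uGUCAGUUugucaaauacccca
hsa-miR-223-5p, chrX:66018895-66018916, + strand: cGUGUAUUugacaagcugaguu

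The mature microRNA was not measured here. HEMGN, a nuclear protein gene of erythroid cells, had 26.4, 24.2 and 23.05 CPM in NT_GSI and 7.77, 6.88 and 7.09 CPM in NT_DMSO (log2 1.76, SE 0.09, edgeR adjusted p = 1.26e-10). GFI1B, a repressor of erythroid and megakaryocytic cells, had 33.0, 35.8 and 36.6 CPM in NT_GSI and 13.35, 15.5 and 13.45 CPM in NT_DMSO (log2 1.32). They were the 2 called among the 5 measured erythroid and megakaryocytic markers, whose summed level was 71.1 to 74.4 CPM in NT_GSI and 34.0 to 36.0 CPM in NT_DMSO. The defining markers HBB, HBA1, ALAS2 and PF4 had no read in any of the 6 libraries. In bulk RNA, more cells of a type and more RNA per cell cannot be told apart.

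Other marker lists held few called genes. Measured B-cell markers summed to 43.1 to 46.6 CPM in NT_GSI and 44.6 to 49.99 CPM in NT_DMSO with none of 5 called. The 4 measured myeloid markers summed to 7.36 to 8.31 CPM in NT_GSI and 5.38 to 6.02 CPM in NT_DMSO, without overlap. Groups did not overlap for 39.7% of all tested genes. CD68, the 1 called higher, made up most of these sums. Before TMM scaling it had 5.74, 6.66 and 6.35 CPM in NT_GSI and 4.04, 4.28 and 3.83 CPM in NT_DMSO. The other 3 were not called, with a lowest log2 change of -1.47. The part of these marker lists in the results was not tested. None of 4 adherent cell markers was called, and of 6 natural killer markers 2 fell and none rose.

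IKZF2, an Ikaros family factor, had 78.8, 87.5 and 80.9 CPM in NT_GSI and 28.3, 29.5 and 33.5 CPM in NT_DMSO, 2.70-fold higher. LGALS1, a secreted lectin, had 15.97, 21.2 and 20.9 CPM in NT_GSI and 2.93, 4.13 and 3.47 CPM in NT_DMSO (log2 2.46, SE 0.18, edgeR adjusted p = 2.15e-08), and differed as well between replicate 1 and the others (adjusted p = 9.96e-05). RHEX, a regulator of erythroid expansion, rose 4.15-fold, and CD52, a small surface antigen, rose 2.41-fold.

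Among further large falls, ANKRD1 had 0.826, 0.705 and 1.01 CPM in NT_GSI and 38.2, 36.4 and 39.8 CPM in NT_DMSO (log2 -5.48). OLFM4, a secreted glycoprotein and NOTCH-regulated stem cell marker in gut, had 10.2, 8.74 and 8.58 CPM in NT_GSI and 158.2, 153.1 and 148.1 CPM in NT_DMSO (log2 -4.06). TNFSF10, the death ligand TRAIL, had 73.0, 69.9 and 64.7 CPM in NT_GSI and 429.2, 394.8 and 409.2 CPM in NT_DMSO (log2 -2.57). GLP1R, ABTB2, ACY3 and TENM4 fell by 3.39, 3.28, 3.52 and 3.02 on the log2 scale.

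Of 27 receptors for chemokines and cytokines, 6 were higher (22.2%) and 3 lower (11.1%), against 9.67% and 15% of all tested genes. CCR9, the gut and thymus homing receptor, had 28.4, 24.8 and 25.65 CPM in NT_GSI and 105.7, 104.2 and 100.7 CPM in NT_DMSO (log2 -1.98, SE 0.08, edgeR adjusted p = 3.23e-12). IL9R had 169.5, 190.5 and 200.9 CPM in NT_GSI and 105.8, 117.5 and 108.2 CPM in NT_DMSO (log2 0.76), and CCR8 rose by 1.12. IL7R, a NOTCH target in other T-ALL, had at most 0.798 CPM in any of the 6 libraries and was not called.

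The remaining lists were split or small. Their counts are to be read beside the shares of all tested genes, 9.67% higher and 15% lower. The BCL2 family, with 7.14% higher and 14.3% lower, lay near these shares. Of 17 measured histone genes, 7 rose and none fell. MAPK feedback and immediate early genes gave 5 higher and 4 lower of 21, or 3 higher without NT_GSI replicate 2 or NT_DMSO replicate 2 and 2 without NT_DMSO replicate 3. The ERK phosphatase DUSP5 fell by 2.09 on the log2 scale from a low level. NF-kB genes gave 6 higher and 2 lower of 16, p53 targets 5 and 4 of 23, and the BCL2 family 1 and 2 of 14, with the death effector PMAIP1 lower by 0.60 and BMF higher by 0.52. Lysosome and autophagy genes gave 8 higher and 6 lower of 41, and DNA methylation and PRC2 genes 4 and 2 of 20.

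Interferon response genes gave 5 higher and 6 lower of 34, where the higher genes were 9 with the replicate block and 3 without NT_DMSO replicate 2. Adhesion genes gave 7 higher and 7 lower of 36. The higher became 4 without NT_GSI replicate 3, and the lower 4 without NT_GSI replicate 1 or NT_DMSO replicate 2 or 3. Oxidative stress genes of the NRF2 and AHR response gave 1 higher and 5 lower of 16, or 3 lower without NT_GSI replicate 3 or NT_DMSO replicate 1. DNA repair genes gave 3 higher (8.82%) and 7 lower (20.6%) of 34, against 9.67% and 15% of all tested genes. The 7 became 3 without NT_GSI replicate 1 or 3, 2 without NT_DMSO replicate 1 and 4 without NT_DMSO replicate 2.

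Deposited transcript estimates were then examined, in TPM, which is scaled by transcript length. The rule, made after the values were seen, took transcripts whose share of their gene moved the same way by more than 25 percentage points in all 3 pairs of equal number, in genes above 5 TPM in both groups. It found 9 transcripts of 5 genes among 94210 transcripts of 9682 genes. These shares are a description, with no test.

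CAT, which encodes catalase, fell at the gene level to 198.1 ± 8.22 CPM in NT_GSI, against 571.1 ± 14.1 CPM in NT_DMSO (SD, n = 3 each, log2 -1.53, SE 0.05, edgeR adjusted p = 9.45e-14). Its transcript CAT-201 had 97.0, 93.3 and 84.2 TPM in NT_GSI and 93.5, 95.4 and 99.9 TPM in NT_DMSO, with overlapping groups. CAT-206, which starts 9 bases further on, had 29.96, 48.5 and 43.0 TPM in NT_GSI and 277.4, 266.7 and 253.9 TPM in NT_DMSO. The fall of the gene thus lay in the second of these estimates, although the transcripts are alike in length (2302 and 2289 bases) and hard to tell apart.

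EVL, an actin regulator, has transcripts with separate starts. EVL-201 had 18.7, 36.6 and 33.8 TPM in NT_GSI and 127.5, 149.5 and 146.6 TPM in NT_DMSO. EVL-202, which starts upstream (chr14:99971449 against chr14:100065278, hg38), had 65.2, 56.6 and 52.99 TPM in NT_GSI and 41.2, 27.3 and 27.0 TPM in NT_DMSO. The share of EVL-201 was 28.4 ± 8.78% in NT_GSI and 68.1 ± 4.87% in NT_DMSO, and that of EVL-202 was 56.0 ± 7.03% and 15.4 ± 4.20% (SD, n = 3 each). The gene as a whole had 157.5 ± 2.42 CPM in NT_GSI and 331.9 ± 6.64 CPM in NT_DMSO.

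For IGF1R, the short noncoding transcript IGF1R-205 of 548 bases had 0.876, 0.235 and 0.864 TPM in NT_GSI and 7.67, 8.64 and 8.52 TPM in NT_DMSO. The long coding transcript IGF1R-219 had 2.83, 2.80 and 3.37 TPM in NT_GSI and 3.82, 3.08 and 5.19 TPM in NT_DMSO, a smaller difference. RB1, looked at because of its fall, had 61.3, 64.7 and 60.6 TPM of the full transcript RB1-201 in NT_GSI and 85.8, 84.6 and 80.5 TPM in NT_DMSO. The short RB1-207, of 329 bases, had 44.6, 55.0 and 44.8 TPM in NT_GSI and 163.8, 152.3 and 157.8 TPM in NT_DMSO. In the knockout cells this transcript took 0.129% of RB1 in KO_GSI and 0.657% in KO_DMSO, against 43.1% in NT_GSI and 65.0% in NT_DMSO.

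**Figure D4:**
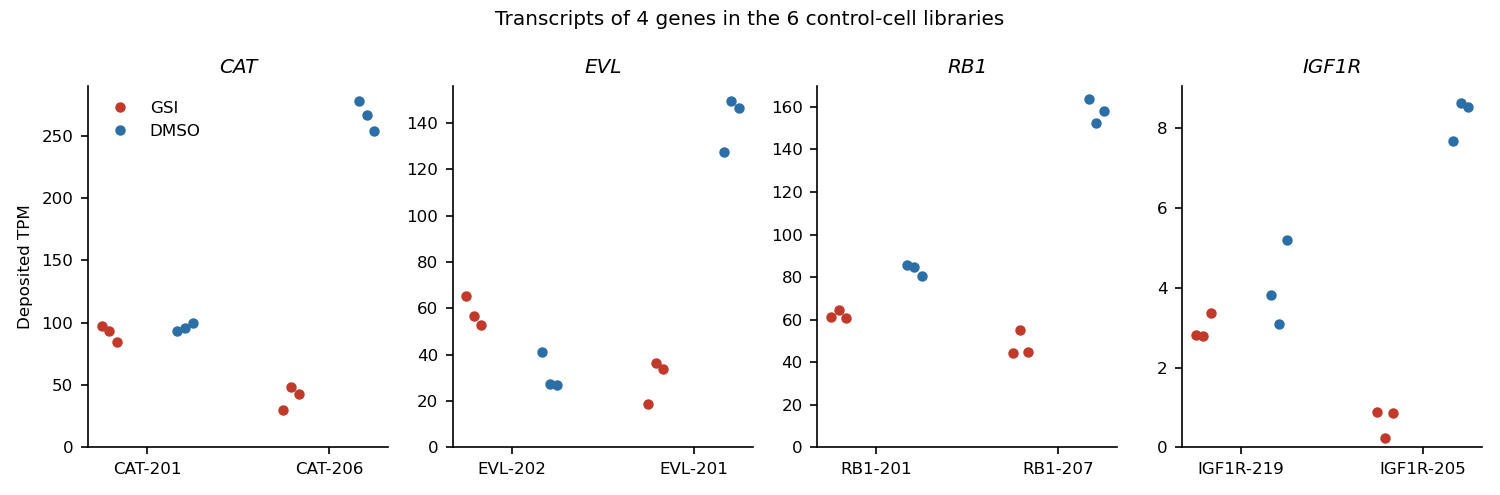
Deposited TPM of pairs of transcripts of CAT, EVL, RB1 and IGF1R in the 3 NT_GSI libraries (left of each pair, red) and the 3 NT_DMSO libraries (right, blue). CAT-201 overlaps between groups while CAT-206 is lower in NT_GSI, and EVL-202 is higher where EVL-201 is lower.

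Whether the response depended on PIK3R1 was asked with the difference of responses, that of control cells minus that of knockout cells. It passed for 484 genes (2.79%), 120 higher (0.692%) and 364 lower (2.1%). This count moved widely, to 1291 with the replicate block, to 1227 with the DESeq2 Wald test, and to between 53 (without NT_DMSO replicate 1) and 1505 (without NT_GSI replicate 2) with a library left out. It was also lower by more than 1.5 times, at 69 to 237, without NT_GSI replicate 1 or 3, NT_DMSO replicate 2 or 3, KO_GSI replicate 2 or 3, or KO_DMSO replicate 1 or 2. The signed log2 change was called lower in control cells, toward a larger fall, for 14 of 51 ribosomal proteins, and higher for none. The same held for 11 of 51 mitochondrial ribosomal proteins and 10 of 50 ribosome biogenesis genes, again with none called higher. These list counts were not rerun under the alternatives, so their stability is unknown.

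HES1 fell less in control than in knockout cells. It averaged 10.2 ± 0.733 CPM in KO_GSI and 73.0 ± 8.11 CPM in KO_DMSO (SD, n = 3 each), a log2 change of -2.84 against -1.88 in control cells (difference 0.96, edgeR adjusted p = 0.00136). The response differed for 60 of the named genes, list members included. Their signed log2 change was lower in control cells for 50 and higher for 10. KRT1, a keratin gene, changed by -1.88 in control and -0.26 in knockout cells (difference -1.62, edgeR adjusted p = 8.14e-05). ACY3, an acylase, changed by -3.52 in control and -1.77 in knockout cells, and TNFSF10 by -2.57 and -2.08. These 3 and HES1 kept their call under every alternative run.

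RB1 changed by -1.21 in control and -0.34 in knockout cells (difference -0.87, edgeR adjusted p = 8.14e-05). With gene sums of the transcript estimates that difference was -0.21 and not called. CCR9 averaged 68.7 ± 2.42 CPM in KO_GSI and 149.1 ± 6.05 CPM in KO_DMSO and fell less than in control cells (difference -0.86, edgeR adjusted p = 0.000683). MXD3 rose by 0.95 in control cells, with -0.05 in knockout cells. For HES4, DTX1, MYC, NOTCH3, LMO1 and IGF1R the difference did not pass the threshold, at 0.01, -0.30, -0.33, -0.25, 0.03 and -0.09 in log2 units. With the replicate block that of MYC passed, at -0.33 (edgeR adjusted p = 0.0184).

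**Figure D5:**
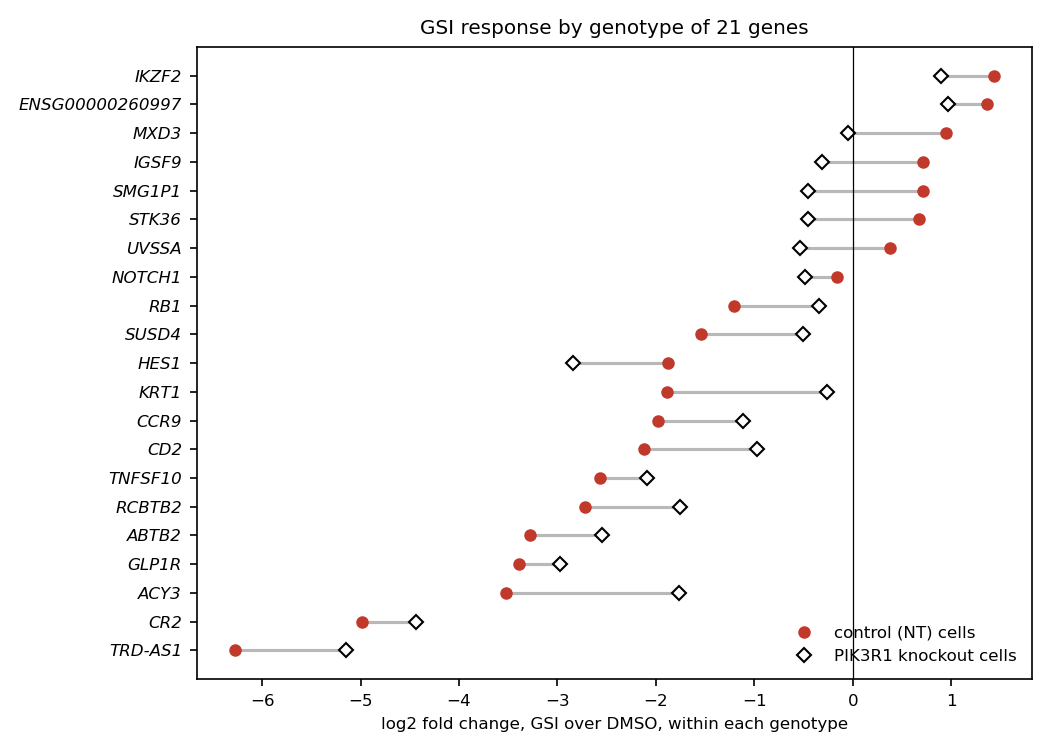
Log2 fold changes of GSI over DMSO in control cells (red circles) and in PIK3R1 knockout cells (open diamonds) for 21 of the 60 named genes whose response differed between genotypes (fixed genes, the largest changes and differences, RB1 and CCR9). HES1 lies further left in knockout cells, while KRT1, ACY3 and RB1 lie further left in control cells.

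The gamma-secretase inhibitor was last set against CB-103 in the same control cells, with 9765 genes (56.3%) called, 4704 higher with GSI (27.1%) and 5061 lower (29.2%). The 2 compounds are not analogs, no source used here gives their doses, and each compound's comparison with DMSO would share the same DMSO libraries. HES4 was lower with GSI, at 4.51 ± 0.127 CPM in NT_GSI and 16.02 ± 1.95 CPM with CB-103 (log2 -1.83, edgeR adjusted p = 9.57e-12). HES1 was higher with GSI, at 22.9 ± 0.643 CPM in NT_GSI and 15.7 ± 1.72 CPM with CB-103 (log2 0.54). CCND3 was higher with GSI, at 984.6 ± 55.3 CPM in NT_GSI and 148.3 ± 19.1 CPM with CB-103 (log2 2.73), as was NOTCH1 (log2 1.52).

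Stress genes were far lower with GSI. ATF5, a factor of the amino acid response, stood at 27.1 ± 1.19 CPM in NT_GSI and 593.7 ± 22.0 CPM with CB-103 (log2 -4.45), and SLC7A11 at 3.67 ± 0.956 CPM in NT_GSI and 200.9 ± 12.9 CPM with CB-103 (log2 -5.76). All 24 unfolded protein response genes and 26 of 30 amino acid response genes were lower with GSI than with CB-103. In the other direction, CD52 stood at 35.2 ± 2.14 CPM in NT_GSI and 3.72 ± 0.312 CPM with CB-103 (log2 3.23). Higher with GSI were 28 of 30 G2/M genes and 32 of 39 G1/S genes. IGF1R was not called (log2 -0.12), although gene sums of transcript estimates gave 0.21 with an edgeR adjusted p = 0.00216.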

How the data were processed

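Stranded polyA libraries were sequenced as read pairs, per the labels' protocols. Salmon 1.4.0, HISAT2 2.2.1, FastQC 0.11.9, bcl2fastq 2.20 and hg38 are named in the submitters' processing notes, without their roles. The authors deposited expected counts for 58735 genes as whole numbers, of which 58207 had a symbol in the name table. Estimated counts and TPM per transcript were deposited for each library, per the file headers, and all 206601 transcripts matched GENCODE release 29, which gave coordinates. How transcripts were summed to genes, and whether strand was used, no source used here states. The deposited gene counts did not always change as sums of the transcript estimates did. The log2 changes were -1.43 and -0.61 for IGF1R, and -1.21 and -0.54 for RB1. Gene TPM of IGF1R averaged 6.32 in NT_GSI and 16.07 in NT_DMSO. The reason was not tested.

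The fit was edgeR 4.0.16 (R 4.3.3): filterByExpr, which left 17346 genes, TMM factors of 0.954 to 1.03, and a quasi-likelihood F test on all 18 libraries with 1 mean per group (12 residual degrees of freedom, common biological coefficient of variation 0.0965). P-values were Benjamini-Hochberg adjusted over all genes tested in a comparison and called under 0.05. Levels are CPM after TMM scaling. Totals ranged from 30416183 to 43558387 reads over the 18 libraries, and a fold change of a gene with few reads is the less precise. The fit was tested on simulated counts.

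The 49 gene lists (1383 of 1385 entries matched) and the members of the comparison were chosen with earlier results of these data known. Named genes were 13 fixed genes, the 15 largest rises and 15 largest falls among called genes with non-overlapping groups and a mean of at least 5 CPM, up to 6 called members of each list, and the 6 highest and 6 lowest of each side comparison. UTP20, NAT10, UTP4, CAT, EVL, the interaction values of RB1 and CCR9, and some list members given by their log2 change were named after their values were seen; those list members, UTP20, NAT10, UTP4, CAT and EVL were not rerun singly under the alternatives. NT_GSI and NT_DMSO libraries of equal replicate number deviated alike from their group means, with correlations of 0.513, 0.352 and 0.420. With the other numbers the mean correlations were -0.343, -0.143 and -0.144. As deviations within a group cancel out, these negative values follow from the positive ones and are no separate evidence of pairing. The main fit nonetheless held no replicate term, and the replicate block was run as an alternative. Alternatives were limma-voom (limma 3.58.1), size factors and the Wald test of DESeq2 1.42.0, no count filter, only the groups compared, the replicate block, replicates 2 and 3 only, gene sums of transcript estimates, mitochondrially encoded genes left out, TPM, a 2-fold threshold and leaving out each library.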

Additional observations from a re-analysis of the deposited data

Results flagged for a closer look

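The response to the gamma-secretase inhibitor, in log2 units, differed between control and knockout cells for 60 named genes, of which 21 are given here: the fixed genes, the genes with the largest changes or differences, RB1 and CCR9. Each difference, control minus knockout, was tested by the interaction contrast in edgeR with adjustment over all genes. A smaller fall or larger rise in control cells gave a positive value for HES1 (0.96), NOTCH1 (0.33), IKZF2 (0.54), the unnamed gene ENSG00000260997 (0.40), STK36 (1.13), IGSF9 (1.02), MXD3 (1.00) and UVSSA (0.92). The pseudogene SMG1P1 (1.17) shares sequence with related copies, so its value is uncertain. A larger fall in control cells gave a negative value for TRD-AS1 (-1.14), CR2 (-0.55), ACY3 (-1.75), GLP1R (-0.42), ABTB2 (-0.73), RCBTB2 (-0.96), TNFSF10 (-0.49), KRT1 (-1.62), CD2 (-1.15), SUSD4 (-1.03), RB1 (-0.87) and CCR9 (-0.86). Adjusted p-values ran from 8.14e-05 for KRT1 and RB1 to 0.0463 for ENSG00000260997. Of these 21 calls, 11 were lost when some single library was left out, and 5 were kept under every alternative run (HES1, ACY3, TNFSF10, KRT1 and CCR9).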

How the results depend on the processing

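Of 287 named genes called between NT_GSI and NT_DMSO, 227 kept the call under every alternative run, 60 lost it under at least 1 and 52 lost it without some library. All 19 calls against CB-103 were kept. Genes called numbered 3232 to 4206 with a library left out (higher 1102 to 1466, lower 2092 to 2740) and 5106 with the replicate block, which kept 4265 of the 4277. With gene sums of transcript estimates 5348 were called, 2488 higher and 2860 lower. TPM in place of CPM moved 38 of 290 named values by more than the spread between replicates and reversed none. At least 2-fold were 510 genes, 246 higher and 264 lower.

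The difference of responses was the least stable. It was called for 1227 genes (308 higher, 919 lower) by the DESeq2 Wald test, 1291 (342, 949) with the replicate block, 42 (1, 41) in replicates 2 and 3 only, 997 (395, 602) with gene sums of transcript estimates and 830 (687 lower) without mitochondrially encoded genes. With no count filter 370 were higher. Leaving out a library gave 53 to 1505 genes, 10 to 305 higher and 43 to 1200 lower. The cause was not tested.

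Left-out libraries moved the counts of lower members to 5 to 10 for snoRNA hosts, 8 to 31 for ribosomal proteins, 3 to 8 for the unfolded protein response, 13 to 28 for nuclear respiratory genes, 2 to 7 for DNA repair, 3 to 8 for T-ALL factors, 3 to 5 for NRF2 and 4 to 7 for adhesion. Higher members moved to 3 to 5 for G1/S, 5 to 8 for G2/M, 2 to 4 for PI3K, 2 to 5 for MAPK, 3 to 5 for interferon and 4 to 6 for adhesion. In replicates 2 and 3 only, 6 ribosomal proteins, 13 respiratory genes and 4 T-ALL factors were lower. T-ALL factors gave 4 lower with no filter or only the groups compared, adhesion 4 lower with only the groups compared, PI3K 11 lower with transcript sums, and interferon 9 higher with the replicate block. The block moved no other count given here by more than 1.5 times. Beyond the genes called in the report with it, it ended the calls of CD1A and CRLF2 between NT_GSI and NT_DMSO and added a difference of responses for MIR223HG, LGALS1, CD52 and 3 other named genes. IGF1R against CB-103 reversed to 0.21 with transcript sums.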
